A study of Mus musculus with 2 samples.

Results

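The 10 genes *Apoe*, *Apoc2*, *Abca1*, *Abcg1*, *Lpl*, *Lipa*, *Npc1*, *Npc2*, *Plin2* and *Hilpda*, of 13289 genes listed in both libraries, carry lipid through macrophages: in, through the lysosome, into droplets or out. They were taken by name and not by their values. They were followed through the myeloid states of injured mouse muscle in 2 single-cell libraries. The Gata3KO library came from C57BL/6 mice carrying Cx3cr1CRE and Gata3fl/fl, in which Cre recombinase made under the *Cx3cr1* gene removes *Gata3*, a zinc-finger transcription factor gene, from monocytes, macrophages and other cells that use *Cx3cr1*. The Wt library came from C57BL/6 mice, for which the labels name neither allele. In both, the tibialis anterior muscle received 50 µl of 10 µM cardiotoxin, a snake venom toxin that lyses muscle fibres, and live CD45+ CD11b+ Ly6G- cells were sorted on day 4, so neutrophils were gated away. The labels do not state the age or sex of the mice or how many were pooled. The question is what loss of *Gata3* does to macrophages of healing muscle.

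Macrophages in injured muscle engulf dead fibres and so take up much membrane cholesterol and fatty acid. Lipoprotein lipase (*Lpl*) releases fatty acids from lipoproteins, lysosomal acid lipase (*Lipa*) splits cholesteryl esters and triglycerides in the lysosome, and the Niemann-Pick proteins *Npc2* and *Npc1* pass the freed cholesterol on to other membranes. The transporters *Abca1* and *Abcg1* then load cholesterol onto lipoprotein particles, where *Apoe* is a carrier and *Apoc2* the cofactor of lipoprotein lipase, while *Plin2* coats stored droplets and *Hilpda* restrains their lipolysis. Sterol-sensing LXR receptors are known to induce *Abca1*, *Abcg1*, *Apoe* and *Lpl*, and hypoxia induces *Hilpda*.

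Each library is 1 sample, so there is no replicate error and no test. A ratio compares these 2 libraries, and a difference in genotype cannot be told apart from one in animals or preparation. The Gata3KO library held 3434 barcodes and 19422237 UMIs (counted transcripts), and the Wt library 3290 barcodes and 15392330 UMIs; 2 barcodes occurred in both. Limits of at least 500 UMIs, 200 genes and at most 10% mitochondrial UMIs kept 650 Gata3KO cells and 990 Wt cells, with medians of 13716 UMIs per Gata3KO cell and 5836 per Wt cell. *Gata3* gave 1 UMI in the kept Gata3KO cells and 4 in the kept Wt cells, too few to check the deletion. Intervals are exact at the 95% level and cover counting error only.

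Joint clustering without the 10 genes gave 3 clusters of monocytes and macrophages, 396 Gata3KO cells and 414 Wt cells in all. Cluster 1 (195 Gata3KO and 114 Wt cells) had lipid-handling macrophage-like markers, with *Gpnmb*, *Fabp5* and *Atp6v0d2* in the lead. Cluster 2 (34 Gata3KO and 239 Wt cells) was macrophage-like and led by interferon-induced genes such as *Ccl12*, *Iigp1* and *Gbp2*. Cluster 3 (167 Gata3KO and 61 Wt cells) scored as lipid-handling macrophage-like too, but the stress and inflammatory genes *Cxcl2*, *Gdf15* and *Ier3* led it. The clusters thus made up 49.2%, 8.59% and 42.2% of the class in Gata3KO, against 27.5%, 57.7% and 14.7% in Wt. The class also differed in depth, with a median of 17167.5 UMIs per cell in Gata3KO and 8661 in Wt. A finer clustering was used to look inside them. Cluster 3 held 31 Wt cells but 5 Gata3KO cells of a monocyte-like finer cluster (*Hp*, *Plac8*, *Vcan*), beside 158 Gata3KO and 25 Wt cells of a stress-gene finer cluster. Cluster 2 held 11 Gata3KO and 124 Wt cells of a macrophage-like finer cluster led by *Ccl12* and *Iigp1*. It also held 18 Gata3KO and 105 Wt cells of a finer cluster that scored highest for conventional dendritic cell markers (led by *Ccr2*, *Clec4b1* and *Mgl2*).

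Over the class, 8 of the 9 genes that reached 20 CPM (a gene's UMIs over all UMIs summed, on a fixed scale) in 1 library had a higher level in Gata3KO and 1, *Npc2*, a lower one, with every interval leaving out 0. When the 3 clusters were given equal weight in both libraries, *Apoe* (log2 ratio -0.013), *Lipa* (-0.16), *Npc1* (-0.16) and *Plin2* (-0.34) turned to lower in Gata3KO. That weighting counts cluster 2, with 34 Gata3KO cells, as much as the others. With cluster 2 left out, *Apoe* (0.19), *Lipa* (0.21) and *Npc1* (0.14) stayed higher, while *Plin2* (-0.13) and *Lpl* (-0.0066) were lower. The cofactor *Apoc2* did not reach 20 CPM. The ratio was at least 1.5-fold for 2 of the 9, *Abca1* and *Hilpda*, against 5.2% of all 5890 genes at 20 CPM. None was 1.5-fold lower, against 7.95% of all genes. The median log2 ratio, Gata3KO over Wt, was 0.33 over the 9 genes and 0.04 over all genes.

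**Figure D1:**
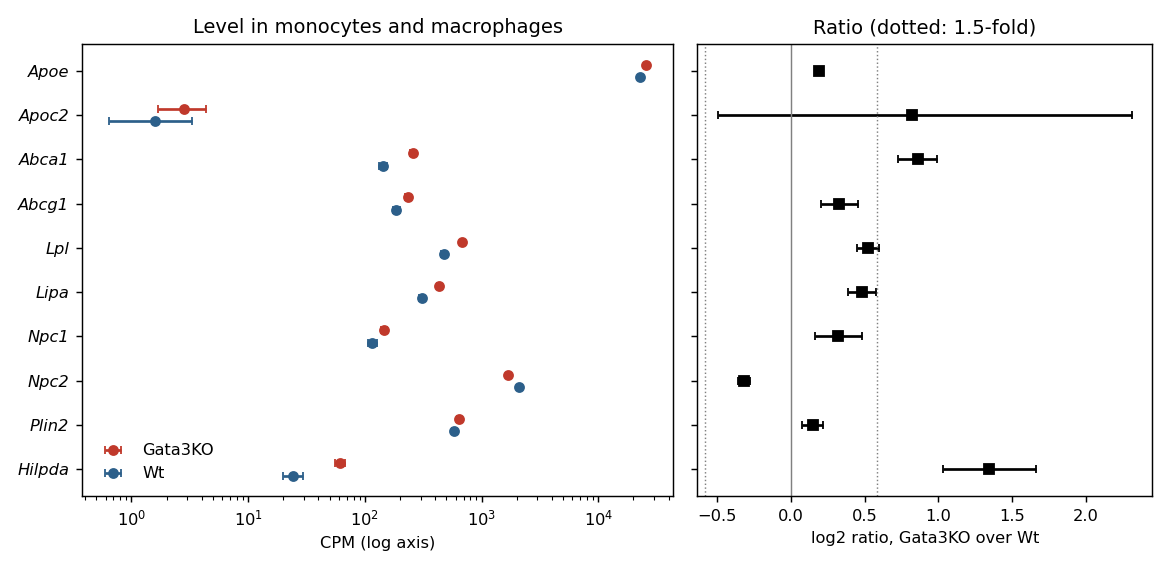
Left, level of each gene in monocytes and macrophages of the Gata3KO library and the Wt library in CPM on a log axis; right, log2 ratio of Gata3KO over Wt with dotted lines at 1.5-fold. Points are sums over each library and bars are exact 95% counting intervals. *Abca1* and *Hilpda* lie beyond the upper dotted line and *Npc2* is the gene below 0 with the interval clear of it.

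The transporter *Abca1* (ENSMUSG00000015243, mm10 chromosome 4 at 53030787 to 53159895, minus strand) stood at 258 CPM in Gata3KO and 142 CPM in Wt, a log2 ratio of 0.86 (interval 0.73 to 0.99) or 1.81-fold. It ranked 98 of 5890 genes by ratio. Its level was 263 CPM in Gata3KO against 185 CPM in Wt in cluster 1, and 263 CPM in Gata3KO against 100 CPM in Wt in cluster 3. In cluster 2 the libraries were close, at 142 CPM in Gata3KO and 127 CPM in Wt (log2 ratio 0.16, interval -0.33 to 0.63). In finer clusters that held 20 or more cells per library, 9 in number, all 9 had a higher *Abca1* level in Gata3KO, and in 7 the interval left out 0. Inside the stress-gene finer cluster the log2 ratio was 0.56 (0.22 to 0.92) where cluster 3 as a whole gave 1.40 (1.07 to 1.73). In cycling cells of cluster 4, from which 9 collagen-rich cells were set aside, *Abca1* stood at 232 CPM in Gata3KO and 75.3 CPM in Wt. In the *Cd209a* dendritic cells of cluster 5 it was 17.6 CPM in Gata3KO (8 UMIs) and 18 CPM in Wt (17 UMIs). The barcodes the filter removed gave 295 CPM in Gata3KO and 139 CPM in Wt.

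Its partner *Abcg1* (ENSMUSG00000024030, chromosome 17 at 31057675 to 31117988, plus strand) stood at 234 CPM in Gata3KO and 186 CPM in Wt, a log2 ratio of 0.33 (0.21 to 0.45). The cluster 1 values were 303 CPM in Gata3KO and 249 CPM in Wt. The interval of the ratio held 0 in clusters 2 and 3, with values of -0.03 and 0.15. In the dendritic cells of cluster 5, *Abcg1* stood at 103 CPM in Gata3KO and 132 CPM in Wt.

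The window from 250 bases before to 50 bases after the start of a gene is shown for *Abca1* and *Hilpda*, the genes past 1.5-fold, and for *Npc2*, the lower one. RefSeq windows on GRCm38.p6 matched 7 of the 10 genes. Capitals mark ACGTG (the core of a hypoxia response element, either strand), the E-box CACGTG, which contains it, and DR4, the LXR half-site pair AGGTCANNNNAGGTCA with up to 3 mismatches. Of 32851 mouse windows, 19.6% hold ACGTG, 7.15% CACGTG and 21.9% a DR4 match. The *Abca1* window has an E-box and a DR4 match (bases -67 to -52, start site at 0), and the *Npc2* window has none. The *Npc2* window is that of a RefSeq start at 84773112, not of the annotated gene start at 84773152. *Hilpda* has 2 RefSeq starts: the window of the one that is also the annotated gene start, at 29272488, has none, and that of the other, at 29272626, has ACGTG at -43 to -39. ACGTG also lies in the windows of *Plin2*, within an E-box, and *Apoc2*, while those of *Apoe* and *Lipa* have none of the motifs. A match is a description of the letters only.
Abca1 (chr4:53159846-53160145, minus): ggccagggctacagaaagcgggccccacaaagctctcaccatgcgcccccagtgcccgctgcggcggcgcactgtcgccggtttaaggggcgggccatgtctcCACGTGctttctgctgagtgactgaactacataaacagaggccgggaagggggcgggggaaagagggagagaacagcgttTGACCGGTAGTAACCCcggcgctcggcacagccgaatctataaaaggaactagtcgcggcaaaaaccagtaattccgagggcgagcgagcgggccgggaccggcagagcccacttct
Hilpda, annotated start (chr6:29272238-29272537, plus): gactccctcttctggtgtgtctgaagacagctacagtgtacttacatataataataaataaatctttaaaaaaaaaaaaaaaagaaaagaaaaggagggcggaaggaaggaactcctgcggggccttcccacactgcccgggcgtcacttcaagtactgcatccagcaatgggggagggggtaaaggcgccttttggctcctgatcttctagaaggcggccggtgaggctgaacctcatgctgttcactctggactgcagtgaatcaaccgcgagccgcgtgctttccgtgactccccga
Hilpda, other start (chr6:29272376-29272675, plus): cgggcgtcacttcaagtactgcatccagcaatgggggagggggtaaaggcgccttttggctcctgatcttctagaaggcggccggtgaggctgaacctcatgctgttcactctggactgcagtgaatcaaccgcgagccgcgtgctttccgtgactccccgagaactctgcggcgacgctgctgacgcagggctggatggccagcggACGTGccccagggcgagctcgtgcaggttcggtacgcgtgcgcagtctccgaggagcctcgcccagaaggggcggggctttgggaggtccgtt
Npc2 (chr12:84773063-84773362, minus): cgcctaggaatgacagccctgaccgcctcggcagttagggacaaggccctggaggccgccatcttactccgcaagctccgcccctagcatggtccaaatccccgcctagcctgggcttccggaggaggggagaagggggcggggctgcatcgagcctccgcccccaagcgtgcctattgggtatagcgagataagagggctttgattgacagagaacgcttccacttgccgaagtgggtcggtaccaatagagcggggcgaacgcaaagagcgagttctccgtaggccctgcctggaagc

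*Apoe* (ENSMUSG00000002985, chromosome 7 at 19696109 to 19699188, minus strand), the main apolipoprotein of macrophages, took 2.58% of class UMIs in Gata3KO and 2.27% in Wt. That is 25821 CPM in Gata3KO and 22669 CPM in Wt, a log2 ratio of 0.19 (0.18 to 0.20). The clusters did not share that direction. *Apoe* was lower in Gata3KO in cluster 1, at 21640 CPM against 28423 CPM in Wt, and in cluster 2, at 12273 CPM against 21955 CPM in Wt. It was higher in cluster 3, at 32037 CPM in Gata3KO against 14010 CPM in Wt. The log2 ratios were -0.39, -0.84 and 1.19 in clusters 1, 2 and 3. With each cell reduced to 2000 UMIs, the median cell of cluster 3 carried 61 *Apoe* UMIs in Gata3KO and 14 in Wt, that of cluster 1 carried 40 in Gata3KO and 58 in Wt, and that of cluster 2 carried 17 in Gata3KO and 37.5 in Wt. Within the stress-gene finer cluster the log2 ratio was 0.53 (0.50 to 0.56). The monocyte-like finer cluster held 5537 CPM of *Apoe* in Wt, from 39 cells. The barcodes removed by the filter had a lower *Apoe* level in Gata3KO, with a log2 ratio of -0.13 (-0.14 to -0.11).

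**Figure D2:**
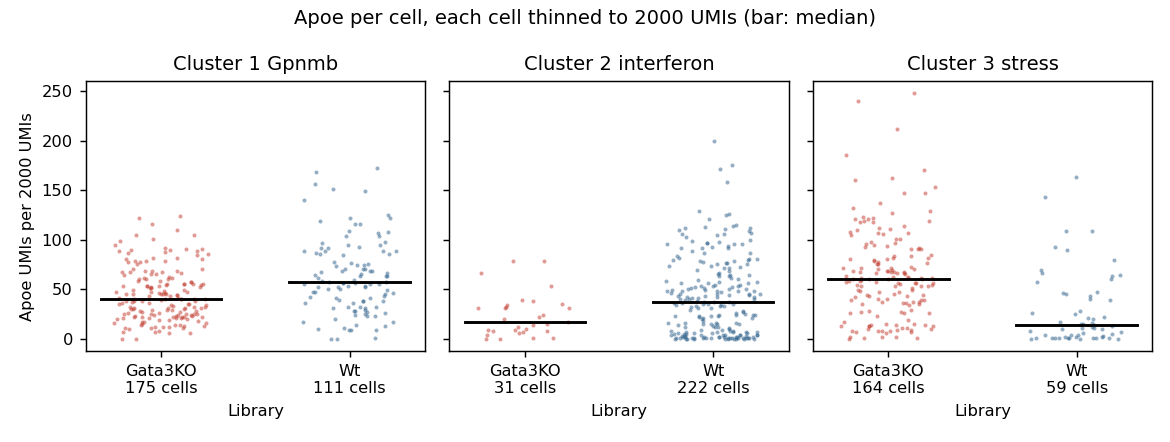
*Apoe* UMIs per cell after each cell was reduced to 2000 UMIs, in clusters 1, 2 and 3, for the Gata3KO library left of the Wt library; each point is a cell and the black bar is the median. Cluster 3 has the Gata3KO median above the Wt median (61 in Gata3KO, 14 in Wt), and clusters 1 and 2 the reverse.

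*Apoc2* (ENSMUSG00000002992, chromosome 7 at 19671579 to 19677941, minus strand) had 19 UMIs in Gata3KO and 7 in Wt over the whole class, a log2 ratio of 0.82 (-0.49 to 2.31). Its exons share 646 bases with another gene on the same strand, *Gm44805*, so its counts are uncertain.

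*Lpl* (ENSMUSG00000015568, chromosome 8 at 68880491 to 68907448, plus strand) stood at 680 CPM in Gata3KO and 473 CPM in Wt, a log2 ratio of 0.52 (0.45 to 0.60). By cluster it was 561 CPM in Gata3KO and 548 CPM in Wt in cluster 1, 362 CPM in Gata3KO and 199 CPM in Wt in cluster 2, and 849 CPM in Gata3KO and 968 CPM in Wt in cluster 3. In cluster 2 it was higher in Gata3KO with an interval clear of 0, and in cluster 3 lower (log2 ratio -0.19, -0.30 to -0.08). In the cycling cells the levels were 742 CPM in Gata3KO and 397 CPM in Wt. Among finer clusters, 5 of 9 had a higher level in Gata3KO. In the barcodes removed by the filter the interval held 0 (log2 ratio -0.03, -0.12 to 0.07). Among genes outside the list, *Capg* had the most similar pattern over 14 cluster-by-library sums (Pearson r 0.97), and the fatty acid receptor *Cd36* was the third (0.95).

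*Lipa* (ENSMUSG00000024781, chromosome 19 at 34492318 to 34527474, minus strand) stood at 428 CPM in Gata3KO and 306 CPM in Wt, a log2 ratio of 0.48 (0.39 to 0.58). Its level in cluster 1 was 369 CPM in Gata3KO and 344 CPM in Wt. It was higher in cluster 3, at 526 CPM in Gata3KO and 452 CPM in Wt, and lower in cluster 2, at 123 CPM in Gata3KO and 213 CPM in Wt. The higher class level of *Lipa*, and that of *Npc1*, turned with the clusters weighted equally, as given above. That weighting counts cluster 2, with 39 *Lipa* and 17 *Npc1* UMIs in Gata3KO, as much as clusters 1 and 3. With cluster 2 left out, the log2 ratio was 0.21 for *Lipa* and 0.14 for *Npc1*. *Npc1* (ENSMUSG00000024413, chromosome 18 at 12189692 to 12236400, minus strand) stood at 145 CPM in Gata3KO and 116 CPM in Wt, a log2 ratio of 0.32 (0.17 to 0.48). It was lower in Gata3KO in cluster 2 (53.5 against 92.2 CPM in Wt) and in clusters 1 and 3 the interval of its ratio held 0. *Npc1* shares exon bases with *Rmc1*, which lies on the opposite strand, and any effect of this on its counts was not tested.

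*Npc2* (ENSMUSG00000021242, chromosome 12 at 84754562 to 84773152, minus strand), the small soluble lysosomal cholesterol carrier, was the one gene that ran the other way. It stood at 1687 CPM in Gata3KO and 2101 CPM in Wt, a log2 ratio of -0.32 (-0.36 to -0.28). The levels were 1823 CPM in Gata3KO and 2053 CPM in Wt in cluster 1, 1458 CPM in Gata3KO and 2095 CPM in Wt in cluster 2, and 1554 CPM in Gata3KO and 2198 CPM in Wt in cluster 3. They were 952 CPM in Gata3KO and 1308 CPM in Wt in cycling cells, and 673 CPM in Gata3KO and 993 CPM in Wt in the *Cd209a* dendritic cells. Of 6 clusters with 20 or more cells per library, all 6 had a lower level in Gata3KO with an interval clear of 0, as did 7 of 9 finer clusters. The 6 include cluster 0, which lies outside the class (104 Gata3KO and 296 Wt cells, median 2198.5 UMIs per cell). The one finer cluster above 0 was collagen-rich and cycling (0.09, -0.06 to 0.25). The barcodes removed by the filter gave a log2 ratio of -0.69.

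*Plin2* (ENSMUSG00000028494, chromosome 4 at 86648386 to 86670060, minus strand) stood at 637 CPM in Gata3KO and 576 CPM in Wt, a log2 ratio of 0.15 (0.08 to 0.22). No cluster of the class showed that direction clear of its interval. The levels were 660 CPM in Gata3KO and 655 CPM in Wt in cluster 1, 249 CPM in Gata3KO and 402 CPM in Wt in cluster 2, and 652 CPM in Gata3KO and 830 CPM in Wt in cluster 3. Of the 9 finer clusters, 7 had a lower *Plin2* level in Gata3KO, 5 of them with an interval below 0. The highest levels lay in an *Mmp12*-led finer cluster, at 1006 CPM in Gata3KO and 1397 CPM in Wt.

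*Hilpda* (ENSMUSG00000043421, chromosome 6 at 29272488 to 29275446, plus strand) had 417 UMIs in Gata3KO and 107 in Wt, or 61.5 CPM in Gata3KO and 24.3 CPM in Wt. The log2 ratio was 1.34 (1.03 to 1.66), 2.53-fold, rank 20 of 5890 genes. With the 3 clusters weighted equally it was 0.05, with log-scale averages of 19.4 CPM in Gata3KO and 18.8 CPM in Wt, so the 1.5-fold call was lost and the gene lay under 20 CPM. That value gives cluster 2, with 1 *Hilpda* UMI in 34 Gata3KO cells, the same weight as clusters 1 and 3. With cluster 2 left out, the log2 ratio was 0.73, still past 1.5-fold. Cluster 3 held 361 of the 417 UMIs in Gata3KO (86.6%) and 78 of the 107 in Wt (72.9%), though *Hilpda* was not used to cluster. Inside cluster 3 the levels were 120 CPM in Gata3KO and 89.8 CPM in Wt, a log2 ratio of 0.42 (0.06 to 0.79). In the stress-gene finer cluster they were 121 CPM in Gata3KO and 105 CPM in Wt, with an interval that held 0 (log2 ratio 0.20, -0.25 to 0.68). The summed level of 10 early response and stress markers was 4857 CPM in Gata3KO and 2512 CPM in Wt over the class, and all 10 were higher in Gata3KO. Their part in the *Hilpda* value was not tested.

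**Figure D3:**
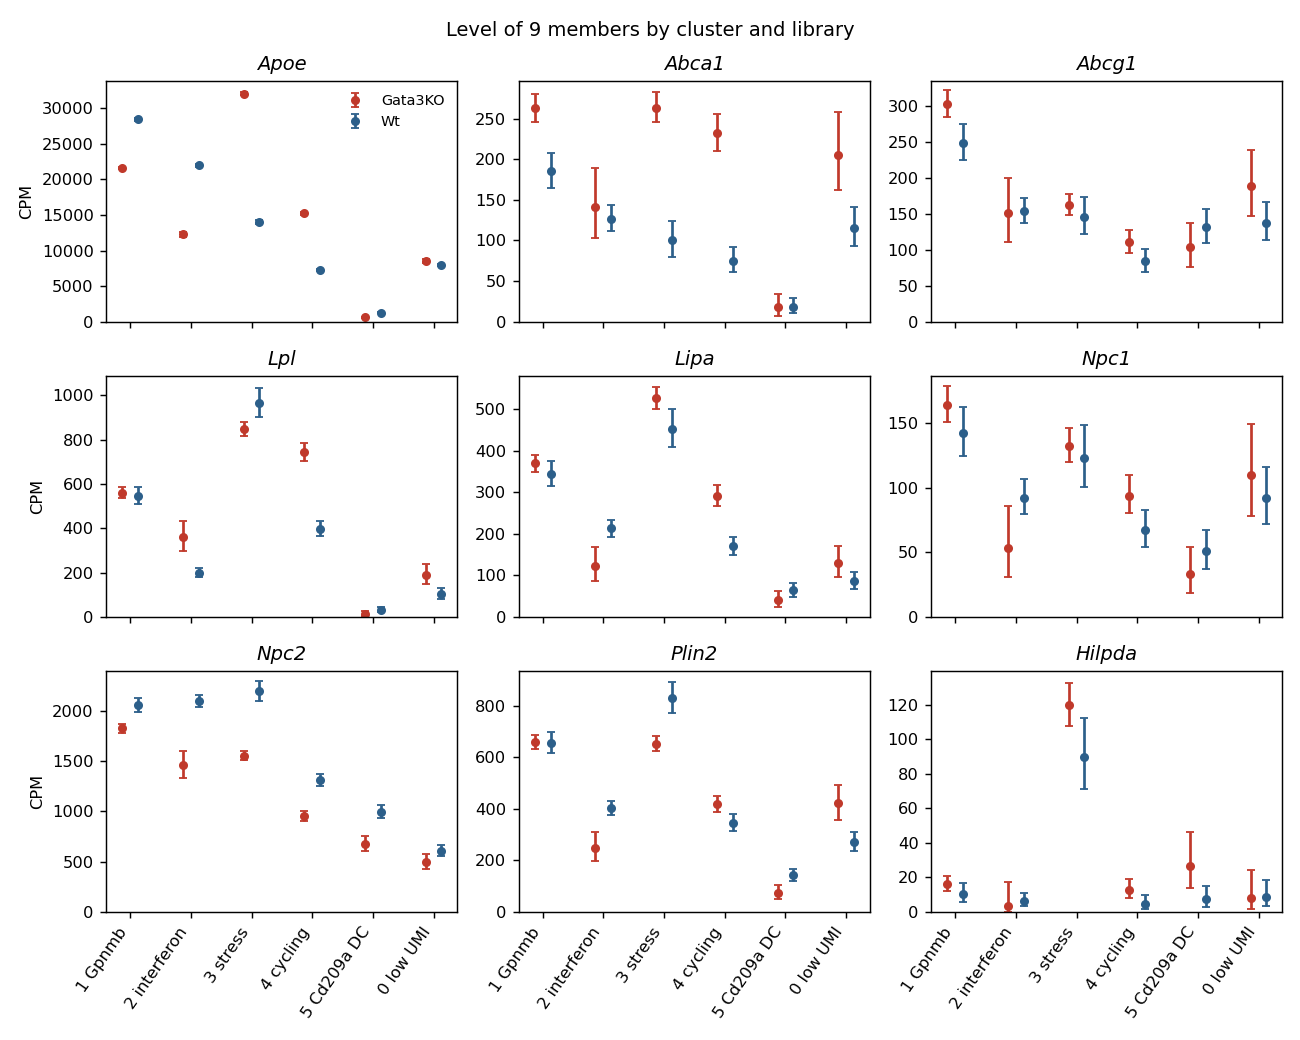
Level in CPM, linear axes from 0, of the 9 genes above 20 CPM, one panel each, over 6 clusters, with the Gata3KO library left of the Wt library; bars are exact 95% counting intervals and cluster 4 is without its collagen-rich cells. *Hilpda* is high in cluster 3 in both libraries, and *Npc2* is lower in Gata3KO in every cluster drawn. Cluster 0, with a median of 2198.5 UMIs per cell, lies outside the class.

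The count of genes past 1.5-fold differed by cluster. Cluster 1 had none of 8 measured genes past 1.5-fold either way (3.94% of all genes were higher and 5.63% lower). Cluster 2 had 1 higher (*Lpl*; 13.5% of all genes) and 4 lower (*Apoe*, *Lipa*, *Npc1* and *Plin2*; 15.6%). Cluster 3 had 2 higher, *Apoe* and *Abca1* (12.5%), and 0 lower (10.9%). Both calls were lost in its stress-gene finer cluster, apart from the monocyte-like cells, at 1.45-fold for *Apoe* and 1.48-fold for *Abca1*. The cycling cells had 4 of 8 higher (*Apoe*, *Abca1*, *Lpl* and *Lipa*; 11.5%) and 0 lower (14.6%). In cluster 2 the Gata3KO library gave 317619 UMIs from 34 cells, so its values rest on few cells. The finer makeup of cluster 2 also differed between the libraries, as given above, and its part in these values was not tested. Over the class, 9 interferon-induced markers summed to 598 CPM in Gata3KO and 3827 CPM in Wt, and monocyte markers to 1381 CPM in Gata3KO and 2986 CPM in Wt. Lipid-handling macrophage markers summed to 23097 CPM in Gata3KO and 15481 CPM in Wt, with 10 of 11 higher in Gata3KO. Resident-like macrophage markers summed to 3621 CPM in Gata3KO and 2293 CPM in Wt, with 7 of 9 higher in Gata3KO. Markers of skeletal muscle summed to 56.0 CPM in Gata3KO and 167 CPM in Wt; their part in these results was not tested. No adipocyte marker of the 6 looked for was listed in both libraries.

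**Figure D4:**
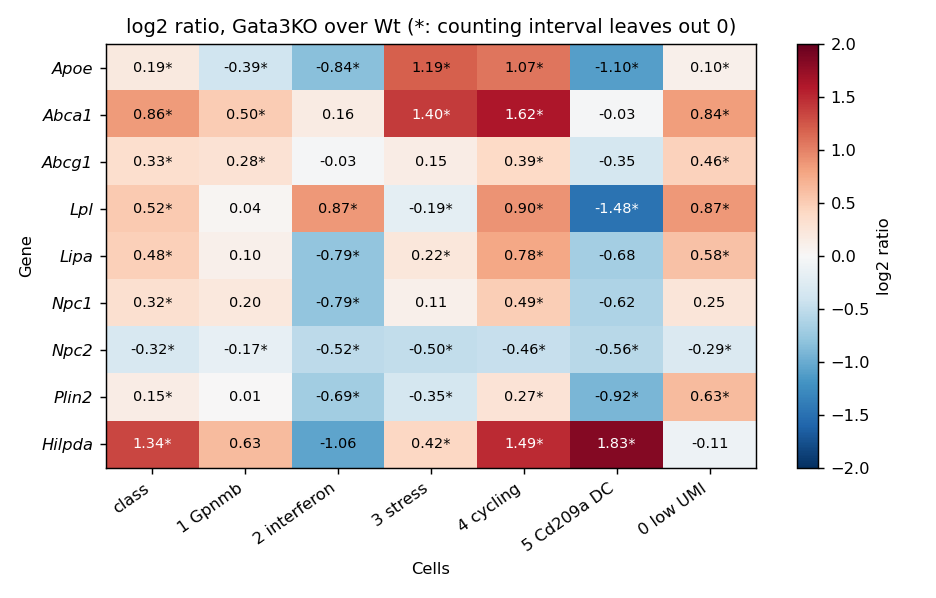
log2 ratio of Gata3KO over Wt for 9 genes (rows) in the class of monocytes and macrophages and in 6 clusters (columns); red is higher in Gata3KO, blue lower, and a star marks an exact 95% counting interval that leaves out 0. *Npc2* is blue in every column, while *Apoe* is red in cluster 3 and blue in clusters 1 and 2. The column of cluster 0 is of cells with few UMIs (median 2198.5) outside the class.

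The share of cells with at least 1 UMI was compared after each cell was reduced to 2000 UMIs, leaving out 26 Gata3KO and 22 Wt cells of the class with fewer. *Abca1* was seen in 36.5% of Gata3KO cells (31.6 to 41.6%) and 23.0% of Wt cells (18.9 to 27.4%). *Lipa* was seen in 50.3% of Gata3KO cells and 34.2% of Wt cells, and *Lpl* in 42.4% of Gata3KO cells and 30.9% of Wt cells. These shares mix clusters that differ in size between the libraries. *Lipa* was seen in 52.6%, 22.6% and 53.0% of Gata3KO cells in clusters 1, 2 and 3, against 45.9%, 26.1% and 42.4% in Wt. *Lpl* was seen there in 36.0%, 41.9% and 49.4% of Gata3KO cells, against 39.6%, 22.5% and 45.8% in Wt. In each cluster the intervals of the libraries overlapped for both genes. Over the class, *Npc2* was seen in 92.2% of Gata3KO cells and 95.9% of Wt cells. The class shares were 60.3% in Gata3KO and 57.1% in Wt for *Plin2*, and 23.8% in Gata3KO and 18.6% in Wt for *Npc1*. As a guide to free RNA, the mature dendritic cell-like cells of Wt (median 6900 UMIs) had *Abca1* and *Lpl* in 0 of 58 thinned cells each, *Apoe* in 65.5% and *Npc2* in 84.5%. Their mean per thinned cell was 1.88 *Apoe* UMIs and 3.07 *Npc2* UMIs, against 47.4 and 3.87 in the Wt class. A cell's own transcripts cannot be told apart from free RNA here, so the *Npc2* share is no measure of free RNA. Unthinned, 7.04% of 71 such Wt cells had *Abca1* and 4.23% *Lpl*. In Gata3KO 8 such cells were left after thinning, too few for a guide. The unthinned shares of *Abca1* were 83.1% in Gata3KO and 52.2% in Wt.

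Other genes of the same pathways were read from lists, each against the median log2 ratio of 0.04 for all genes, of which 5.2% were at least 1.5-fold higher and 7.95% lower. LXR receptors and targets had 2 of 11 measured genes at least 1.5-fold higher and 1 lower (median 0.32): the phosphodiesterase *Smpdl3a* stood at 332 CPM in Gata3KO and 179 CPM in Wt, and the desaturase *Scd2* at 56.2 CPM in Gata3KO and 36.5 CPM in Wt, while the transporter *Abca7* stood at 11.6 CPM in Gata3KO and 25.6 CPM in Wt. Lipoprotein and fatty acid uptake had 2 of 10 higher (median 0.38), the scavenger receptor *Cd36* at 303 CPM in Gata3KO and 171 CPM in Wt, and the endocytic receptor *Lrp1* at 600.4 CPM in Gata3KO and 345 CPM in Wt. Cholesterol synthesis had 0 of 8 higher and 4 lower (median -0.47), with the kinase *Pmvk* at 16.4 CPM in Gata3KO and 32.9 CPM in Wt. Of lysosomal lipid genes, 2 of 16 were higher and 1 lower (median 0.29), with *Hexa* at 1063 CPM in Gata3KO and 629 CPM in Wt. Esterification and droplet genes had 0 of 9 higher and 1 lower (median 0.30), with *Soat1*, which makes cholesteryl esters, at 263 CPM in Gata3KO and 190 CPM in Wt. Hypoxia genes had 4 of 11 higher and 0 lower (median 0.47), with *Bnip3l* at 219 CPM in Gata3KO and 121 CPM in Wt. PPAR receptors and targets had 1 of 5 higher and 0 lower (median 0.01), and of 3 lipoprotein lipase regulators none passed either way (median 0.25).

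**Figure D5:**
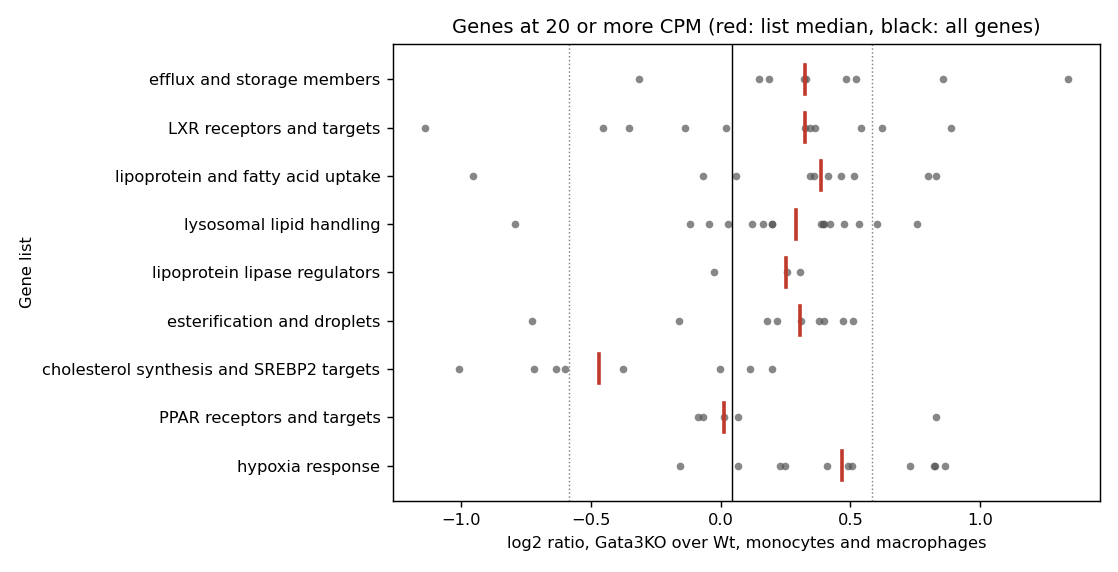
log2 ratio of Gata3KO over Wt in monocytes and macrophages for each gene of 9 lists at 20 CPM or more in 1 library; each point is a gene, the red bar is the list median, the black line the median of all genes and the dotted lines 1.5-fold. Cholesterol synthesis is the one list drawn with its median below 0.

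Over 14 sums of a cluster and library, *Lrp1* had the pattern most like *Abca1* (Pearson r 0.98), *Itga9* most like *Apoe* (0.98), *Spp1* most like *Plin2* (0.97) and *Cyba* most like *Npc2* (0.92), among 4867 genes. These sums share 2 libraries and differ in depth, and the values are descriptions. *Lipa* and *Plin2* were the most alike pair within the list (0.96), and *Abcg1* and *Hilpda* the least (0.10).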

How the data were processed

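The deposited tables hold UMI counts per gene and cell barcode, 1 table for each library, as whole numbers that the authors did not normalise. The submitters' processing notes name mm10 as the build and list R 3.6.1, Seurat 3.0.2 and Cell Ranger 3.0.1; no settings or cell filter are stated there. The labels' protocols give 10x 3' libraries of 8000 loaded cells each. Genes listed in both tables were used.

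Cells kept had at least 500 UMIs, 200 genes and at most 10% mitochondrial UMIs. Counts were log-normalised and clustered jointly on 2000 variable genes without the 10 genes reported, with 30 components, 15 neighbours and Leiden resolution 0.6, and 1.2 for finer clusters (scanpy 1.11.5, leidenalg 0.10.2, igraph 0.11.9, scikit-learn 1.9.0). A cluster took the name of the marker list with the highest mean z-score, and a score under 0.15 or leading genes against the name left it unnamed. Clusters 1, 2 and 3 formed the class. The finer clusters by member and the split of cluster 4 were added after seeing the data. UMIs were summed per library and class as CPM; sums have exact Poisson intervals, ratios exact conditional binomial intervals and shares exact Clopper-Pearson intervals (95%; Python 3.11.15 with pandas 2.3.3, scipy 1.17.1 and numpy 2.4.6). A gene counts as measured at 20 CPM in 1 library and as higher or lower at 1.5-fold. List medians had 1 CPM added, as did levels with cluster shares held equal, which average log2 values over the 3 clusters. Doublets were scored with Scrublet and left in. The ratio step was tested on simulated counts. Named genes were the 10 genes, the 2 highest and 2 lowest of each list, and the most similar genes over cluster sums. Alternatives changed the cell filter, doublets, clustering, scaling, cell weights, depth, cluster shares, fold and floor; leaving out a cluster or the cells with the most UMIs was added after seeing the data. Some genes that this rule selects are not reported here. The genes, lists and markers were chosen with earlier results of these data known.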

Additional observations from a re-analysis of the deposited data

Results flagged for a closer look

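Several ratios lay on opposite sides of 0 in different clusters of the class, each with an interval clear of 0. *Apoe* had a log2 ratio, Gata3KO over Wt, of 1.19 in cluster 3 but -0.39 in cluster 1 and -0.84 in cluster 2. *Lpl* had 0.87 in cluster 2 and -0.19 in cluster 3. *Lipa* had 0.22 in cluster 3 and -0.79 in cluster 2. With 1 library per genotype, the differences between clusters were not tested.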

How the results depend on the processing

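No paired analysis was possible because each genotype has 1 library. Over 19 alternatives, *Abca1* stayed higher in Gata3KO (0.69 to 1.16), as did *Abcg1* (0.05 to 0.64), and *Npc2* stayed lower (-0.46 to -0.18). The log2 ratio turned with cluster shares held equal for *Apoe* (-0.013), *Lipa* (-0.16), *Npc1* (-0.16) and *Plin2* (-0.34), and *Hilpda* lost its 1.5-fold call there (0.05, over all alternatives 0.05 to 1.92). Without cluster 2, *Lipa* (0.21), *Npc1* (0.14) and *Hilpda* (0.73) stayed higher in Gata3KO. *Plin2* also turned at 5% mitochondrial UMIs and 1000 UMIs (-0.15), at Leiden resolution 0.3 (-0.11) and without cluster 2 (-0.13). *Apoe* turned at 20% mitochondrial UMIs (-0.0088) and without cluster 3 (-0.25), and *Lpl* without cluster 2 (-0.0066). The *Apoe* difference in shares was -0.011 percentage points unthinned. Leaving out a cluster was chosen after seeing the data. The count of genes 1.5-fold higher, 2 as reported, became 4 with every barcode, with every cell weighted alike and with all kept cells, 5 after thinning and without cluster 1, 3 with cycling macrophages counted, without the 5% of cells with the most UMIs and with no floor, and 1 with shares held equal, at 2-fold and at a 100 CPM floor; the count lower stayed 0. Median-of-ratios scaling lowered all ratios by 0.04. Scrublet called 8 of 650 Gata3KO and 2 of 990 Wt cells as doublets. *Hilpda* in single clusters, and all genes in cluster 2 of Gata3KO, are limited by few UMIs or cells.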
